A study of Rattus norvegicus with 172 samples.

Results

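The proteasome genes of the rat spinal cord were followed after transection. They are the 41 genes on the array whose symbol starts with Psma, Psmb, Psmc, Psmd or Psme, out of 14218 genes with an unambiguous annotation. Of these, 39 encode subunits, activators or assembly chaperones of the proteasome, and the other two, Psmc3ip and Psme3ip1, share the letters of the symbol but are not subunits. The subunit genes comprise 7 of the alpha ring (Psma1 to Psma7), 6 of the constitutive beta ring (Psmb1, Psmb2, Psmb3, Psmb4, Psmb5 and Psmb7), the 3 inducible catalytic subunits (Psmb8, Psmb9 and Psmb10), 6 ATPases and 11 non-ATPase subunits of the regulatory particle (Psmc and Psmd), and 3 activators (Psme1, Psme2 and Psme4). The 3 assembly chaperones are Psmd5, Psmd9 and Psmd10. Psmb6 and Psme3 have no value here, because their probe sets are also annotated to other genes.

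The proteasome is the chamber in which cells degrade proteins tagged with ubiquitin. Alpha and beta subunits stack into the core particle, whose beta ring carries the proteolytic sites, and the regulatory particle on its end recognises and unfolds the substrate. Under interferon, the catalytic subunits Psmb5, Psmb6 and Psmb7 can be replaced during assembly by Psmb8, Psmb9 and Psmb10. The resulting immunoproteasome cuts proteins into peptides suited to presentation on MHC class I, and it is abundant in immune cells and scarce in resting neurons. Psme1 and Psme2 form an interferon-inducible cap that opens the core without ATP.

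RNA was measured on Affymetrix rat expression arrays, in female adult Wistar rats 2 months old whose cord was transected at T7-8 with removal of a 5 mm segment. The arms of the study differ in what was put into the gap: chitosan carriers of NT-3 (neurotrophin-3) inside a chitosan tube (NT-3 tube), the same tube without them (tube alone), or no implant (lesion control), so all 3 arms share the transection. The 5 mm pieces rostral to the gap, in it and caudal to it were sampled with dura and meninges on days 1, 3, 10, 20, 30, 60 and 90, the lesion piece from day 3 and for tube alone on day 3 alone, and the same level of unoperated rats served as normal cord. The 55 injured groups and the normal group have 3 arrays each, except that the rostral group of tube alone on day 10 has 2, and each array holds RNA pooled from 4 animals. A further 5 arrays held a reference RNA. P-values measure the spread between these pools, and their number limits the precision.

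Neuron markers had array means of 11.46 to 11.56 in normal cord and oligodendrocyte markers 13.10 to 13.19 (log2 RMA values, the scale of all levels below, where 1 unit is a doubling). In the lesion segment of lesion control the neuron markers averaged 6.71 to 10.42 and skeletal muscle markers 6.50 to 11.92, against 5.40 to 5.56 for muscle in normal cord, so that tissue was not intact cord. The lesion control day 3 array numbered 2 stood apart with a muscle mean of 11.69. An MHC class I gene, RT1-CE10, had group means of 9.05 to 12.12 in 19 injured groups and 6.71 to 8.82 in the other 36, and arms could lie on different sides on the same day. Arms were therefore also compared over days on which their RT1-CE10 means lay within 1 log2 unit, called matched days. Whole pieces of tissue were homogenised, so fewer cells of a type and less RNA per cell cannot be told apart.

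Psmb8 and Psmb9 lie within the class II region of the MHC on chromosome 20, with the peptide transporter genes Tap2 and Tap1 as neighbours in the order Tap2, Psmb8, Tap1, Psmb9. Psme1 and Psme2 both lie on chromosome 15, and Psmb10 lies on chromosome 19. The 250 bases upstream of the annotated start of these 5 genes are printed because they are the interferon-inducible members and were searched for interferon-type motifs, which 3 of them hold (RefSeq, build GRCr8, 5′ to 3′ in the direction of the gene, with motif matches in capitals).
Psmb8 (chr20:4657032-4657281, minus strand): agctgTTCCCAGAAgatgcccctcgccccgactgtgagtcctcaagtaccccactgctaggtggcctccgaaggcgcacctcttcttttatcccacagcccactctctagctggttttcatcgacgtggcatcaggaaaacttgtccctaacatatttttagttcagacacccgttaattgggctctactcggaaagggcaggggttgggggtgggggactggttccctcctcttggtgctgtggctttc
Psmb9 (chr20:4668750-4668999, plus strand): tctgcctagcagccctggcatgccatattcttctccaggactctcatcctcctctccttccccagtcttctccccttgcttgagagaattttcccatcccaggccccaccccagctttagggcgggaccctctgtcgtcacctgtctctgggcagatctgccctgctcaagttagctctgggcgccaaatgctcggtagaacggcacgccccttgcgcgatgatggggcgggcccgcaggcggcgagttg
Psmb10 (chr19:50743293-50743542, minus strand): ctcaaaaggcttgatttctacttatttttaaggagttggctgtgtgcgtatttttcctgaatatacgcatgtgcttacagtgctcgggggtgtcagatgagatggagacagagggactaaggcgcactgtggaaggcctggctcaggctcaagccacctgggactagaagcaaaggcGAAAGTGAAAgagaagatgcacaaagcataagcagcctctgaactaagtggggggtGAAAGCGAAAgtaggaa
Psme1 (chr15:33038721-33038970, plus strand): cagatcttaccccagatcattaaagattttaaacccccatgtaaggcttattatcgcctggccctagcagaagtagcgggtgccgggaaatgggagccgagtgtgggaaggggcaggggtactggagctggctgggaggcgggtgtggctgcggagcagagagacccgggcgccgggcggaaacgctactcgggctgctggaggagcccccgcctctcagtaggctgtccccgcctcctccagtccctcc
Psme2 (chr15:33052752-33053001, minus strand): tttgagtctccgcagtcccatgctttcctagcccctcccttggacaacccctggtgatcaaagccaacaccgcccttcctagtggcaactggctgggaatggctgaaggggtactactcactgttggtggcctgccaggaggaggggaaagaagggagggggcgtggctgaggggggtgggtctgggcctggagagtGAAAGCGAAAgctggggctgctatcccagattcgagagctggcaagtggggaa
Both strands were searched for 3 motifs: the interferon-stimulated response element (GAAA followed after any 2 bases by GAAA), the gamma-activated site TTCNNNGAA and the antioxidant response element TGACNNNGC. Psmb10 held the first of these 2 times, as GAAAGTGAAA and GAAAGCGAAA, and Psme2 held it once, as GAAAGCGAAA. Psmb8 held a gamma-activated site, TTCCCAGAA, and in the 300-base entry, looked at after the shorter window, also the response element on the minus strand as TTTCGCTTTC, from base -4 to base 6 across the start. No match to the 3 motifs was found in these windows of Psmb9 and Psme1. Over all 33465 promoters with a complete sequence, 3.41% held the response element in 250 bases, 7.67% the gamma-activated site and 10.1% the antioxidant element. Of the 37 proteasome genes with an entry, 5 held the first (Psma4, Psmb3, Psmb10, Psmd7 and Psme2), 4 the second (Psmb8, Psmc6, Psmd3 and Psmd7) and 6 the antioxidant element (Psma3, Psmb2, Psmb5, Psmd1, Psmd9 and Psme4). A match is a description of letters and not of a bound site.

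In the injured cord without a tube, the inducible catalytic subunits rose in every segment, most in the lesion on day 3. Psmb8, which replaces Psmb5, had 10.86, 10.52 and 11.10 in the lesion of lesion control on day 3, against 7.65, 7.63 and 7.84 in normal cord. The groups did not overlap, as was the case for 76.8% of all genes tested in this comparison, and the rise was 3.12 ± 0.15 log2 units (SE), or 8.69-fold (limma, adjusted p = 1.95e-18). Psmb9, which replaces Psmb6, had 10.68, 10.60 and 10.93, against 7.22, 7.73 and 7.75 in normal cord. Its rise was 3.17 ± 0.21, or 9.0-fold (adjusted p = 1.27e-14). Psmb10, which replaces Psmb7, had 10.11, 10.19 and 10.41, against 8.51, 9.18 and 8.99 in normal cord. Its rise was 1.34 ± 0.16, or 2.54-fold (adjusted p = 8.39e-09), again with no overlap.

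**Figure D1:**
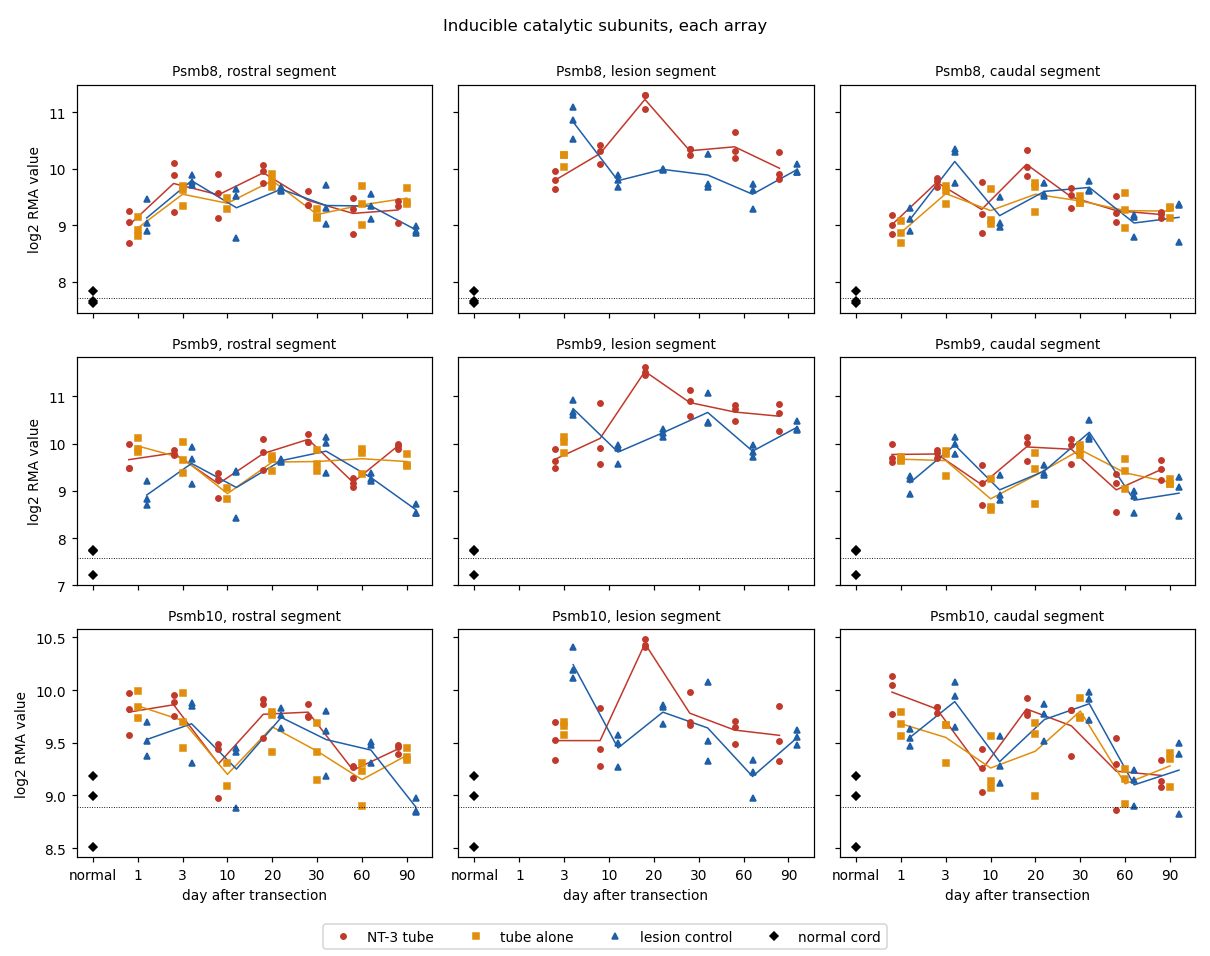
Each point is an array, with log2 RMA value on the vertical axis and day after transection on the horizontal axis, for Psmb8, Psmb9 and Psmb10 (rows) in the rostral, lesion and caudal segments (columns). Lines join group means, the dotted line is the normal cord mean, and every injured array of Psmb8 and Psmb9 lies above the normal arrays.

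The rise of Psmb8 and Psmb9 lasted to the end of the series. In the lesion of lesion control on days 60-90, Psmb8 ranged from 9.29 to 10.09 with a median of 9.84 over 6 arrays, and Psmb9 from 9.71 to 10.48 with a median of 10.12. No array overlapped normal cord, as for 60.7% of all genes tested, and the rises were 2.06 ± 0.13 and 2.53 ± 0.19. Days 10-30 lay close to this, at 2.19 ± 0.12 for Psmb8 and 2.67 ± 0.18 for Psmb9. Rostrally, Psmb8 was 1.75 ± 0.17, 1.72 ± 0.16 and 1.42 ± 0.17 above normal cord on days 1-3, 10-30 and 60-90, and Psmb9 was 1.68 ± 0.18, 1.95 ± 0.17 and 1.37 ± 0.18 above it. Caudally the values were 1.91 ± 0.16, 1.78 ± 0.15 and 1.38 ± 0.16 for Psmb8 and 2.00 ± 0.19, 1.99 ± 0.18 and 1.31 ± 0.19 for Psmb9. All of these passed the test at an adjusted p under 0.05. They share the same 3 normal arrays, whose labels give no day. The periods and segments are therefore not independent repeats, and normal cord was not sampled by day.

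Psmb10 moved less and came back closer to normal cord. It rose rostrally by 0.71 ± 0.14 on days 1-3 and 0.61 ± 0.13 on days 10-30, and caudally by 0.82 ± 0.15 and 0.74 ± 0.14. On days 60-90 it had 8.84 to 9.51 with a median of 9.14 rostrally and 8.82 to 9.50 with a median of 9.20 caudally, and normal arrays lay within both ranges. The differences of 0.27 ± 0.14 and 0.27 ± 0.15 did not pass the test (adjusted p = 0.104 and 0.124). Both were 0.08 without normal array 1, and they passed without normal array 2 (0.41 and 0.42), with array weights (0.19 and 0.23) and, caudally, without day 90 array 2 (0.38). In the lesion it was still raised on days 60-90, by 0.47 ± 0.14, a call lost without normal array 1 (adjusted p = 0.101).

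The cap subunits followed. Psme1 had 12.27, 12.22 and 12.33 in the lesion of lesion control on day 3, against 10.41, 10.60 and 10.77 in normal cord, a rise of 1.68 ± 0.13 (adjusted p = 2.02e-13). It stayed 1.30 ± 0.10 above normal cord on days 10-30 and 1.36 ± 0.11 on days 60-90, and it was raised in all 3 periods rostrally (1.12, 1.14 and 0.90) and caudally (1.26, 1.19 and 0.89). With the mean of its probe sets these rises were smaller and still called, at 0.99, 0.73 and 0.75 in the lesion, 0.56, 0.51 and 0.37 rostrally and 0.61, 0.58 and 0.33 caudally. The other Psme1 probe set averaged 6.42 over cord arrays, under the floor of 6.55 for dim genes, against 11.74 for the brightest (r = 0.16). Averaging it in shrank the changes of Psme1 given both ways, here and below, so that mean is no second measurement of their size. Psme2 had 11.44, 11.43 and 11.56 in that lesion group, against 9.73, 10.02 and 10.04 in normal cord, a rise of 1.55 ± 0.15. By days 60-90 it was 0.74 ± 0.13 above normal cord in the lesion, 0.33 ± 0.13 rostrally (lost without normal array 1, adjusted p = 0.193), and caudally 0.30 ± 0.14, which did not pass (adjusted p = 0.0616). Psme4, an activator of nuclear proteasomes that is not part of this cap, was lower by 0.50 on day 3 in the lesion, but its brightest probe set did not vary with its other two (r = -0.09 over cord arrays), and its direction is uncertain.

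The constitutive catalytic subunits did not rise with them. Psmb5, which carries the chymotrypsin-like site, had 11.98, 12.08 and 12.12 in the lesion of lesion control on day 3, against 11.48, 11.85 and 12.00 in normal cord. These ranges overlapped, and the difference of 0.28 ± 0.14 did not pass the test (adjusted p = 0.0705). On days 60-90 Psmb5 fell in the lesion by 0.34 (SE 0.12), with 11.14 to 11.76 and a median of 11.44. That call was lost without normal array 2 or normal array 3 (adjusted p = 0.0623 to 0.147) and with the mean of its probe sets (-0.10, adjusted p = 0.258). The other Psmb5 probe sets averaged 6.37 and 4.81 over cord arrays, under the floor of 6.55 for dim genes, against 11.79 for the brightest. Averaging them in gives these dim probe sets equal weight with the brightest, here and below. The changes of Psmb5 given both ways came out smaller by that mean, and some turned sign. Which of the values is closer to its RNA was not tested. Psmb7, which carries the trypsin-like site, fell in the lesion by 0.55 (SE 0.14) on days 10-30, with 10.28 to 11.37 and a median of 10.88, against 11.34, 11.40 and 11.66 in normal cord. It fell by 0.53 (SE 0.15) on days 60-90, when no array overlapped normal cord, and it rose by 0.32 ± 0.13 rostrally on days 1-3, a call lost in 5 of 9 fits that left out an array (adjusted p = 0.0583 to 0.141).

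**Figure D2:**
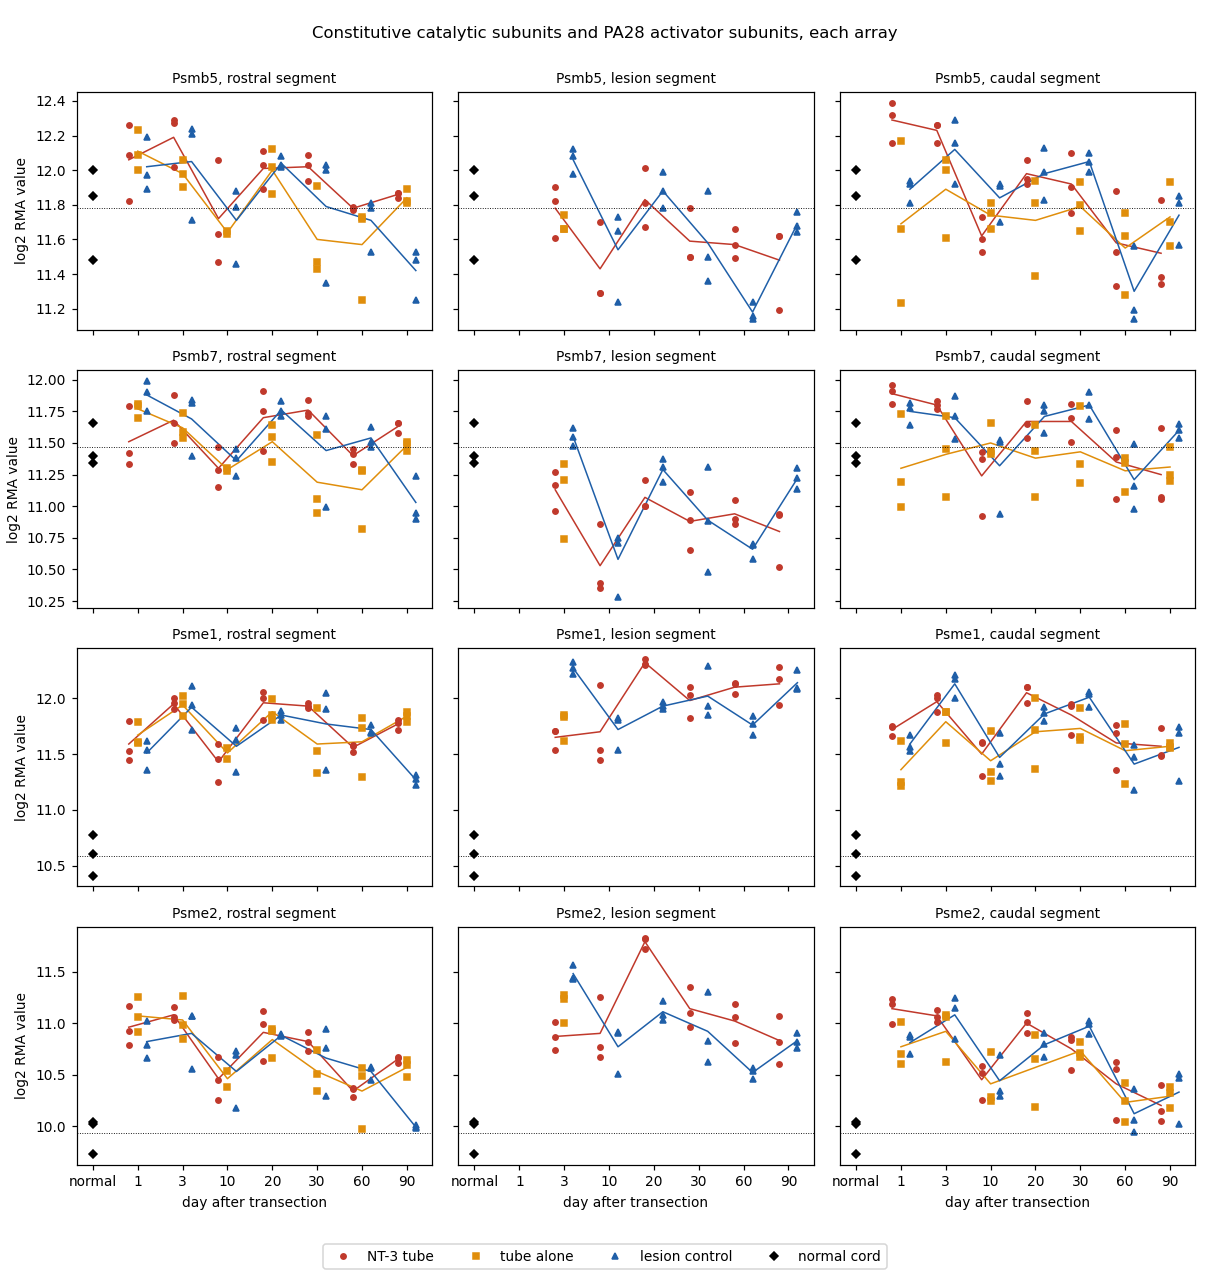
Each point is an array, with log2 RMA value against day after transection, for Psmb5, Psmb7, Psme1 and Psme2 (rows) in the 3 segments (columns), with lines through group means and the normal cord mean dotted. Psme1 lies above the normal arrays throughout. Psmb5 and Psmb7 scatter around the normal level rostrally and caudally, and in the lesion most of their group means lie below the normal mean.

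Differences within an array between an inducible subunit and the one it replaces were tested by exact two-sided permutation over arrays, in 18 tests adjusted together. Psmb8 minus Psmb5 averaged -1.78 ± 0.14 (SD, n = 9) in the lesion of lesion control on days 10-30 and -4.07 ± 0.21 (n = 3) in normal cord, a difference of 2.29 (exact p = 0.00909, the smallest this design allows, adjusted p = 0.0357). The difference was 2.40 in the lesion on days 60-90 and 1.5 to 1.68 in the 6 rostral and caudal periods, each with an adjusted exact p = 0.0357. On day 3 in the lesion it was 2.84, where 3 arrays against 3 cannot reach an exact p below 0.1 (adjusted p = 0.106). Psmb10 minus Psmb7 averaged -1.29 ± 0.18 in the lesion on days 10-30 and -2.57 ± 0.32 in normal cord, a difference of 1.28 (adjusted exact p = 0.0357). It also passed in the lesion on days 60-90 (1.00) and on days 10-30 rostrally (0.56) and caudally (0.60), and the rostral and caudal ones did not pass over days with matched RT1-CE10. The remaining differences, 0.34 to 1.26, had adjusted exact p-values of 0.0612 to 0.143. A difference between probe sets is not a ratio of molecules, and the change in it between groups is what was tested.

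**Figure D3:**
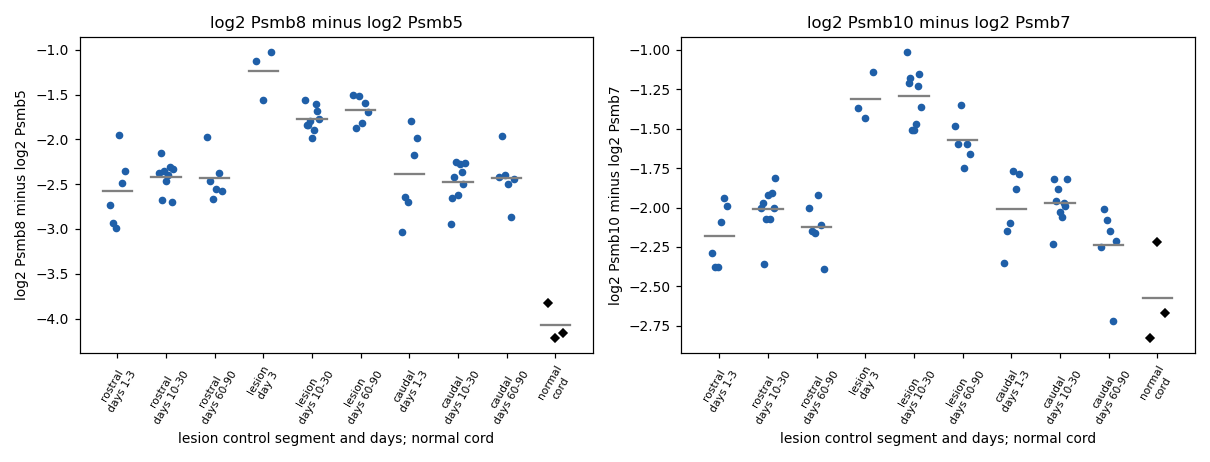
Each point is an array: the within-array difference of log2 RMA values Psmb8 minus Psmb5 (left) and Psmb10 minus Psmb7 (right), for lesion control by segment and period and for normal cord (diamonds), with grey bars at the means. The 9 lesion arrays of days 10-30 lie between -1.99 and -1.56 for Psmb8 minus Psmb5, and the 3 normal arrays between -4.22 and -3.83.

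Across all 41 genes, 23 rose and 8 fell in the lesion on day 3 among the 77.1% of 11922 genes tested that were called in this comparison, with a median change of 0.27 against 0.11 over all genes tested. On days 10-30, 9 rose and 17 fell (background 77.9%, medians -0.03 and 0.06), and on days 60-90, 7 rose and 18 fell (72.2%, medians -0.12 and -0.00). Rostrally 26 rose and 1 fell on days 1-3 (59% of 11553 genes called), 10 and 10 on days 10-30 (63.1%) and 6 and 7 on days 60-90 (57.9%). Caudally the counts were 23 and 2 (61.2%), 13 and 7 (57.3%) and 6 and 6 (52.8%). The members were called in 75.6%, 65.9% and 61% of cases in the lesion, rostrally and caudally in the first days, and in 61%, 31.7% and 29.3% on days 60-90, when all genes were called in 72.2%, 57.9% and 52.8%. All 41 passed the filter on dim genes in each comparison.

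**Figure D4:**
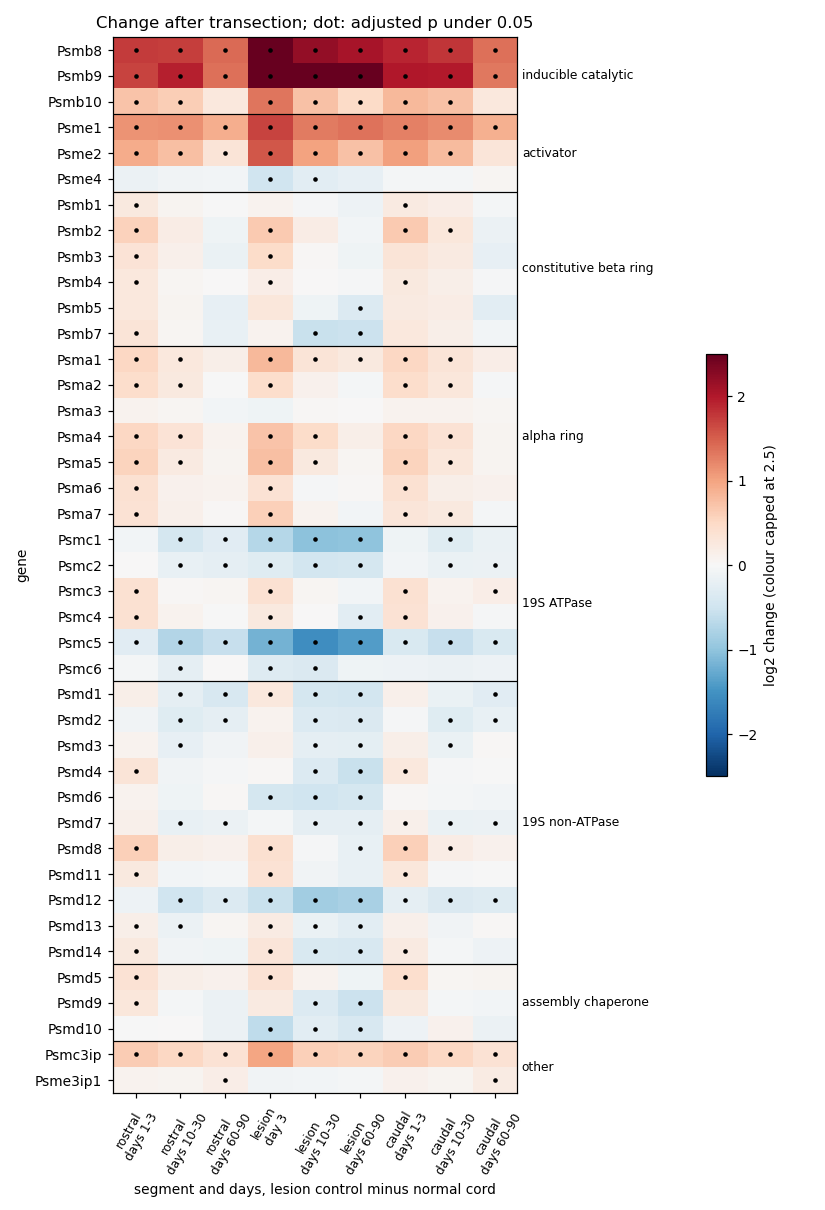
Colour gives the log2 change of lesion control against normal cord for the 41 genes (rows, by subunit group) in 9 combinations of segment and period (columns), red for higher and blue for lower, and a dot marks an adjusted p under 0.05. The inducible subunits and Psme1 and Psme2 are red in each column, the alpha ring is red mostly in the early columns, and Psmc1, Psmc5 and Psmd12 are blue in the lesion.

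The core rose in the first days. Of the 7 alpha ring genes, which gate entry to the chamber, 6 rose on days 1-3 rostrally and caudally and on day 3 in the lesion, and Psma3 did not pass in any of these. All genes were called higher in 28.9%, 30.8% and 42.3% of cases in the rostral, caudal and lesion comparisons. The largest of these rises in the lesion were Psma1 (0.81 ± 0.10, with 11.68, 11.71 and 11.77 on the 3 arrays in ascending order, against 10.69 to 11.08 in normal cord) and Psma5 (0.75 ± 0.09). On days 60-90 none of the 7 passed rostrally or caudally, where limma called 57.9% and 52.8% of all genes, and 1 passed in the lesion, Psma1 at 0.24 ± 0.09, not without normal array 2 (adjusted p = 0.228). Of the 6 constitutive beta genes, 5 rose rostrally and 3 caudally on days 1-3 and 3 in the lesion on day 3, led by Psmb2 at 0.58 ± 0.11, 0.66 ± 0.12 and 0.66. The count of 3 of 6 in the lesion is near the 42.3% of all genes called higher there. On days 60-90 none of them rose and Psmb5 and Psmb7 fell in the lesion, near the 36.6% of all genes called lower.

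The regulatory particle fell in the lesion from day 10. Of its 17 subunits, none rose and 13 fell on days 10-30, with a median of -0.34, and none rose and 14 fell on days 60-90, with a median of -0.37, while 36.2% and 36.6% of all genes tested were called lower. Psmc5, an ATPase of the ring that unfolds substrates, was the leading fall in all 9 comparisons. It had 10.65 to 11.10 with a median of 10.98 in the lesion of lesion control on days 10-30, against 12.41, 12.45 and 12.49 in ascending order in normal cord, and fell by 1.55 (SE 0.09, adjusted p = 1.25e-16). Its smallest fall was 0.29 (SE 0.08), rostrally on days 1-3. The ATPase Psmc1 fell by 1.03 (SE 0.07) and Psmd12, a scaffold subunit of the lid, by 0.86 (SE 0.10) in the lesion on days 10-30. Psmc1 and Psmc5 moved closely together over the 56 group means (r = 0.98).

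On day 3 in the lesion, 7 of the 17 rose and 6 fell, which is 76.5% called against 77.1% of all genes. Psmc3 (0.38) and Psmd8 (0.41 ± 0.09) were among those that rose, and Psmc1 (-0.71), Psmc5 (-1.19) and Psmd12 (-0.56) among those that fell. On that day the particle's subunits thus moved in both directions. Rostrally on days 1-3, 7 rose and 1 fell (47.1% called, against 59% of all genes), led by Psmd8 at 0.60 ± 0.09. The assembly chaperone Psmd10 fell in the lesion in all 3 periods, by 0.64 on day 3. Psmc3ip, a meiotic recombination cofactor and no subunit, rose in all 9 comparisons, by 0.37 to 0.99 (0.19 rostrally and caudally on days 60-90 with array weights), the caudal one of days 60-90 not without normal array 1 (adjusted p = 0.0959).

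In the lesion, oligodendrocyte markers fell in 3 of 3 and neuron markers in 4 of 4 tested on days 10-30, with medians of -3.06 and -3.17, and skeletal muscle markers rose in 5 of 5, with a median of 4.47. Microglia and macrophage markers rose in 7 of 7 in each segment and period, with medians of 1.34 to 2.76. T cell markers rose in 5 of 5 in the lesion on day 3, with array means of 7.48 to 7.99, against 5.47 to 5.51 in normal cord. The part of these cell types in the changes of the proteasome genes was not tested. Without the lesion control day 3 array of high muscle signal, the rise of Psmb8 on day 3 was 3.27.

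Genes of neighbouring pathways gave these counts, where 77.1% of all genes were called on day 3, 77.9% on days 10-30 and 72.2% on days 60-90. Of 9 genes of class I antigen processing in the lesion on day 3, 8 rose, with a median of 1.63, among them the peptide transporter Tap1 (2.52 ± 0.14) and Tap2 (2.13 ± 0.16), tapasin Tapbp (1.66 ± 0.12) and the trimming peptidase Erap1 (1.88 ± 0.10). Canx, the chaperone calnexin, fell by 0.77. On days 60-90 the count was again 8 and 1, with a median of 1.06. Of 10 interferon signalling genes tested, 10 rose on day 3, with a median of 2.03, among them the transcription factors Irf1 (2.22 ± 0.14) and Irf8 (2.36 ± 0.14). Of 18 genes of proteasome assembly, regulation and shuttling, 7 rose and 6 fell on day 3, and 2 rose and 9 fell on days 10-30. Nfe2l1, the factor known to raise proteasome genes when the proteasome is inhibited, fell by 0.92 on day 3 and the assembly factor Pomp rose by 0.48 ± 0.19. The shuttle genes Ubqln1 and Ubqln2 fell by 1.00 and 1.04, and Uchl5, a deubiquitinase of the regulatory particle, fell by 0.97 on days 10-30.

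Psmb8, Psmb9, Psme1 and Psme2 were higher in the lesion than in the neighbouring segments of lesion control over days 3 to 90. Of the 41 genes, more were called lower than higher there. Psmb9 averaged 10.27 in the lesion and 9.33 rostrally, a difference of 0.94 ± 0.09 (adjusted p = 7.62e-18), and it was 0.87 ± 0.09 above the caudal segment, on 6 of 6 days in both. Psmb8 differed by 0.62 ± 0.08 and 0.55 ± 0.08, also on 6 of 6 days. Psmb10 was 0.22 ± 0.07 above the rostral segment, and its 0.12 ± 0.07 over the caudal segment did not pass (adjusted p = 0.0953). Psme1 was higher by 0.29 and 0.24 and Psme2 by 0.35 and 0.31. Psmb7 was lower by 0.44 (adjusted p = 6.6e-09) and 0.53, and Psmc5 by 0.79 and 0.92. Psmb5 was lower by 0.13 and 0.18, of which the first was lost in 24 of 36 fits that left out an array and was 0.00 with the mean of its probe sets, which made the second -0.05 (adjusted p = 0.183). In all, 8 of the 41 were higher and 19 lower in the lesion than rostrally (82.4% of 11989 genes called), and 6 higher and 24 lower than caudally (82.9%). These shares count both directions, so the lean to lower is not set against that of all genes. Between caudal and rostral segments, limma called none of the 41 (background 5.95%) and 2 had an unadjusted p under 0.05, and the differences of Psmb8, Psmb9 and Psmb10 were 0.06, 0.09 and 0.09.

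Late against early in lesion control, most of the family fell. On days 60-90 against day 3 in the lesion, 34 fell and 2 rose (background 67.2%), with a median of -0.47 against -0.07 over all genes tested. On days 60-90 against days 1-3, 32 fell and none rose rostrally (49.4%, medians -0.30 and -0.05), and 29 fell and 1 rose caudally (49.9%, medians -0.29 and -0.03). The 6 constitutive beta genes fell in each segment, with Psmb2 lower by 0.68, 0.72 and 0.80 in rostral, lesion and caudal cord, and the caudal fall of Psmb7 (-0.32) was lost in 5 of 12 fits that left out an array. The rostral fall of Psmb5 (-0.47) was -0.13 with the mean of its probe sets (adjusted p = 0.0624). Psmb8 fell by 0.34 (SE 0.14) rostrally (lost in 9 of 12 fits that left out an array), 1.06 (SE 0.13) in the lesion and 0.53 (SE 0.13) caudally. Psmb9 fell by 0.64 in the lesion and 0.69 caudally, and its -0.31 rostrally did not pass (adjusted p = 0.0753).

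With the NT-3 tube, the inducible subunits in the lesion followed another course. Averaged over days 3 to 90, Psmb8 was 10.34 with the NT-3 tube and 10.01 in lesion control, a difference of 0.33 ± 0.06 (adjusted p = 5.71e-05). Psmb9 was 10.57 with the NT-3 tube and 10.27 in lesion control (0.30 ± 0.09, adjusted p = 0.006), and both were higher on 5 of 6 days. The single days ran in both directions, with 18%, 5.26%, 33.8%, 18.3%, 25.8% and 28.8% of all genes called on days 3, 10, 20, 30, 60 and 90. On day 3, Psmb8 had 9.81, 9.64 and 9.96 in NT-3 tube, against 10.86, 10.52 and 11.10 in lesion control, lower by 1.02 (SE 0.15, adjusted p = 1.21e-05). On day 20, it had 11.31, 11.31 and 11.06 in NT-3 tube, against 9.98, 10.00 and 9.99 in lesion control, higher by 1.24 ± 0.15 (adjusted p = 1.29e-07). Neither pair of groups overlapped.

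Psmb9 and Psmb10 did likewise on days 3 and 20. Averaged over days 3 to 90, however, Psmb10 was not called between NT-3 tube and lesion control. Its difference was 0.06 to 0.22 over the fits (limma, adjusted p up to 0.384). Psmb9 was lower by 1.07 on day 3 and on day 20 had 11.62, 11.51 and 11.45 in NT-3 tube, against 10.15, 10.31 and 10.22 in lesion control, higher by 1.30 ± 0.21. Psmb10 was lower by 0.71 on day 3 and higher by 0.65 ± 0.16 on day 20, with 10.41, 10.48 and 10.43 in NT-3 tube against 9.68, 9.86 and 9.84 in lesion control. The cap subunits ran with them, Psme2 lower by 0.61 and higher by 0.68, and Psme1 lower by 0.62 and higher by 0.39 (0.06 with the mean of its probe sets). On day 60 all of these were higher, Psmb8 and Psmb9 each by 0.84. On day 90, none of them differed past the threshold, and their differences were -0.01 to 0.23. Psmb5 was called on 1 of the 6 days and Psmb7 on none, within -0.42 to 0.39.

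On day 20 in the lesion, T cell markers had array means of 8.99 to 9.52 with the NT-3 tube and 7.12 to 7.26 in lesion control, and microglia and macrophage markers 11.34 to 11.57 and 10.50 to 10.72. Muscle markers had 5.35 to 7.67 with the NT-3 tube and 10.06 to 11.49 in lesion control. On day 3, T cell markers had 6.92 to 7.05 with the NT-3 tube and 7.48 to 7.99 in lesion control, and microglia and macrophage markers 10.84 to 11.08 and 11.60 to 11.74. Their part in the differences was not tested. RT1-CE10 was 2.58 higher in NT-3 tube on day 20 and 1.2 higher on day 3, on day 3 not past the threshold (adjusted p = 0.051), and over the matched days 10, 30 and 60 Psmb8 was higher by 0.58 and Psmb9 by 0.45 in NT-3 tube, both past the threshold.

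Over all 41 genes, 5 were higher and 5 lower in the lesion with the NT-3 tube than in lesion control (background 42%). Psmd2 (0.19 ± 0.04) and Psmd3 (0.14 ± 0.03) of the regulatory particle were higher on 6 of 6 days, though neither passed over matched days (adjusted p = 0.057 and 0.122), and Psma3 (-0.15), Psmd6 (-0.13) and Psme4 (-0.18) fell. Psme2 was higher by 0.15 ± 0.06 (adjusted p = 0.0424), a call lost when a replicate block was fitted (adjusted p = 0.053) and in 18 of 36 fits that left out an array (adjusted p = 0.0542 to 0.0806). Rostrally 1 of the 41, Psmb9, was higher in NT-3 tube than in lesion control (background 3.04%), and caudally limma called none (10.2%), with 3 at an unadjusted p under 0.05. For Psmb8, the difference between NT-3 tube and lesion control in the lesion minus that in the rostral cord was 0.20 ± 0.11, and minus that in the caudal cord 0.28 ± 0.11, neither past the threshold (adjusted p = 0.167 and 0.0531). For Psmb7 the first of these was -0.25 ± 0.10 (adjusted p = 0.0388). These contrasts between segments were not fitted with the alternatives described below.

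Tube alone was sampled in the lesion on day 3. Psmb8 had 10.24, 10.25 and 10.04, against 10.86, 10.52 and 11.10 in lesion control, lower by 0.65 (SE 0.15, adjusted p = 0.00833), Psmb9 was lower by 0.75 (adjusted p = 0.0305) and Psmb10 by 0.59 (adjusted p = 0.0257). In all, 11 of the 41 fell and none rose (background 7.1%), among them Psme1 (-0.51), Psmd8 (-0.43), Psmd9 (-0.42) and Psmc5 (-0.38). The calls rest on few arrays: the count was 1 without tube alone array 3, 2 without lesion control array 3 and 5 without lesion control array 2, and 0 when the spread was taken from these groups alone. Against tube alone on that day, NT-3 tube had 7 higher and none lower (background 23.5%), led by Psmd10 (0.39), Psmd8 (0.37) and Psmc5 (0.37). That count fell to 3 without tube alone array 3. The difference for Psmb8, NT-3 tube minus tube alone, was -0.37 ± 0.15 and did not pass (adjusted p = 0.0685). The tube alone arrays serve in both contrasts. Skeletal muscle markers had array means of 5.52 to 5.63 in tube alone, against 6.50 to 11.69 in lesion control, and T cell markers 7.19 to 7.36 against 7.48 to 7.99. Tube alone was lower in 2 of 5 T cell markers, 2 of 5 muscle markers and 4 of 10 interferon signalling genes. NT-3 tube was lower than tube alone in 4 of 7 microglia and macrophage markers and higher in 2 of 5 muscle markers. The part of these markers in the calls was not tested.

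Outside the lesion, tube alone against lesion control had 2 higher and 5 lower rostrally (background 30.5%) and none higher and 9 lower caudally (8.65%), led by Psmb7 (-0.21), Psmb2 (-0.18) and Psma5 (-0.15). The call of Psmb7 was lost in 20 and that of Psmb2 in 5 of 42 fits that left out an array, and neither passed over matched days (adjusted p = 0.0723 and 0.0712). NT-3 tube against tube alone had 5 higher rostrally (23.1%), led by Psmd1 (0.20), Psmc5 (0.15) and Psmc1 (0.13), and 4 higher caudally (3.93%), led by Psma5 (0.14), a call lost in 18 of 42 fits that left out an array. Rostrally tube alone was higher than lesion control in 5 of 5 muscle markers and lower in 4 of 4 neuron markers, with medians of 1.46 and -0.30, whose part was not tested. Of the inducible subunits these counts hold only Psmb9, higher by 0.31 ± 0.08 in tube alone than in lesion control rostrally. Over matched days that difference was 0.15 (adjusted p = 0.304). Over matched days the rostral counts were 1 and 1. The caudal counts were between 4 and 15 and between 0 and 14 as single arrays were left out, the second range set by tube alone day 1 array 3 (0) and array 2 (14) and day 3 array 1 (14).

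Psmb9 was the inducible subunit called between arms rostrally over all days, and it is given here beside RT1-CE10. It averaged 9.66 with the NT-3 tube and 9.27 in lesion control, a difference of 0.38 ± 0.08 (adjusted p = 0.00312). On day 90, when RT1-CE10 averaged 10.90 with the NT-3 tube and 7.23 in lesion control, Psmb9 had 9.89, 9.95 and 10.00 in NT-3 tube against 8.54, 8.72 and 8.53 in lesion control, higher by 1.35 ± 0.21. On day 1 it was higher by 0.74 ± 0.21 with the NT-3 tube and by 1.03 ± 0.21 in tube alone than in lesion control, with RT1-CE10 at 10.79, 10.82 and 6.71. On day 90 tube alone was also higher, with 9.78, 9.55 and 9.53 (1.02 ± 0.21, adjusted p = 0.000359), but there RT1-CE10 averaged 7.64, close to the 7.23 of lesion control. On the remaining days no difference between NT-3 tube and lesion control passed. The shares of all genes called for NT-3 tube were 31.7%, 7.42%, 0%, 0.00866%, 0.182%, 0.433% and 5.38% on days 1, 3, 10, 20, 30, 60 and 90, and 15.8% and 25.1% for tube alone on days 1 and 90. Over matched days the difference for NT-3 tube was 0.09 (adjusted p = 0.82), and none of the 41 was called. Psmb8, 0.09 ± 0.08 higher over all days, was called on none of the 7.

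The difference between the 2 linked genes was set against RT1-CE10 over groups. In the 7 rostral groups with a RT1-CE10 mean of 10.42 to 11.23, log2 Psmb9 minus log2 Psmb8 averaged 0.32 to 0.99, and in the 14 with 6.71 to 8.14 it averaged -0.45 to 0.14. Caudally the ranges were 0.12 to 0.79 in 7 groups and -0.43 to 0.08 in 14, and in the lesion -0.13 to 0.76 in 5 groups and -0.19 to 0.36 in 8, which overlap. The division at a mean of 9 was set after the values were seen, and no test was made. The groups with high RT1-CE10 come from all 3 arms, with lesion control among them on day 30 alone.

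**Figure D5:**
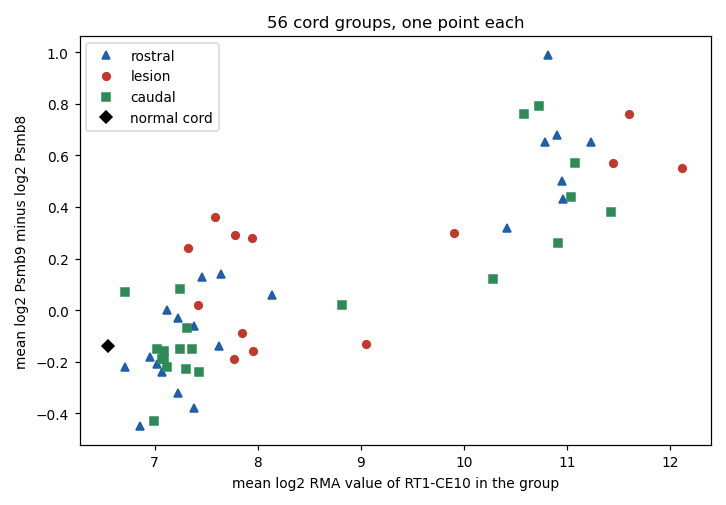
Each point is 1 of 56 cord groups, with its mean log2 RMA value of RT1-CE10 on the horizontal axis and its mean log2 Psmb9 minus log2 Psmb8 on the vertical axis, by segment, with normal cord as a diamond. Rostral and caudal groups form 2 sets along the horizontal axis. On the vertical axis these sets do not overlap within either segment but do when both segments are pooled, and those of the lesion groups overlap.

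Over the 56 cord group means, which share the 3 segments and their marker changes, the inducible subunits correlated with each other at r = 0.65 to 0.83 and with Psme1 and Psme2 at a median of 0.83, but with the 13 constitutive core genes at a median of 0.23. The core genes correlated among themselves at a median of 0.79 and with the 17 regulatory particle genes at 0.57. The regulatory particle genes correlated among themselves at a median of 0.68. Between the inducible subunits and the regulatory particle the median was -0.12, for example -0.72 for Psmb8 with Psmc5. The genes most like Psmb8 were Hcst (0.92), Map4k1 (0.91), Tmem179b (0.91), Gpsm3 (0.91) and Ifi35 (0.90). Those most like Psmb9 were its neighbour Tap1 (0.93), Ifi35 (0.91), Tapbp (0.91), Ube2l6 (0.91) and Dtx3l (0.89). Those most like Psmb10 were Psme2 (0.95), Nubp1 (0.90), Zfp420 (0.90), Polr1h (0.89) and Trex1 (0.87). These are descriptions over groups and carry no test.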

How the data were processed

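The authors hybridised pooled RNA to Affymetrix rat arrays. The deposited values are log2 RMA values from Affymetrix Expression Console, per the submitters' processing notes. The table holds 31099 probe sets on 172 arrays, from 2.6 to 15.0, with array medians of 7.10 to 7.25. Tool versions were not given in the sources used here. RMA equalises the arrays and compresses low signals.

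Probe sets with 1 gene symbol (20832) gave 14218 genes, each read from whichever probe set had the largest average on the 167 cord arrays. A gene entered the tests if at least 1 group mean reached the 40th percentile (6.55). One model per segment was fitted together with normal cord, and a joint model of all cord arrays gave the segment contrasts, with a separate mean for each group (limma lmFit and eBayes, Benjamini-Hochberg within each comparison, threshold 0.05). Within-array differences were tested by exact permutation. Psmb9 minus Psmb6 could not be computed, so that family has 18 tests. Motifs were searched in RefSeq promoters, and 37 members had an entry.

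Members and lists were chosen with earlier results of these data known. Named in each comparison were Psmb8, Psmb9, Psmb10, Psmb5, Psmb7, Psme1 and Psme2, and the 3 largest called rises and falls among the other members, with 5 genes most alike to each inducible subunit. Further members named in the text as examples were chosen after their values were seen. The alternatives left out the dim filter, each array in turn, or the groups outside a contrast; they added array weights, a replicate block, a robust eBayes trend or another quantile step; or they used matched days or averaged probe sets. A longer promoter window was added after the first counts were seen. R 4.3.3, limma 3.58.1, Python 3.11.15, pandas 2.3.3, numpy 2.4.6 and matplotlib 3.10.9 were used.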

Additional observations from a re-analysis of the deposited data

Results flagged for a closer look

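The rise of the inducible subunits against normal cord differed between segments by test in lesion control. It was larger in the lesion than rostrally by 0.62 for Psmb8, 0.94 for Psmb9 and 0.22 for Psmb10, and larger than caudally by 0.55 for Psmb8 and 0.87 for Psmb9. It differed between periods as well. On days 60-90 against days 1-3 the rostral change was -0.34 for Psmb8 and -0.44 for Psmb10, and the caudal change was -0.53 for Psmb8, -0.69 for Psmb9 and -0.55 for Psmb10. On days 60-90 against day 3 the change in the lesion was -1.06 for Psmb8, -0.64 for Psmb9 and -0.87 for Psmb10.

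On the 5 universal reference RNA arrays, which enter no comparison, Psmb8 averaged 10.81 ± 0.20 (SD, n = 5) and Psmb9 10.84 ± 0.29, against 7.71 and 7.57 in normal cord. Psmb10 averaged 9.26 ± 0.32 there and 8.89 in normal cord. Among those 5 arrays, 1 lay apart for Psmb7, with a gap to its nearest neighbour of 0.81 of the whole range. The limit for such a flag is one that about 1 in 20 groups pass by chance, so 1 flagged group is no finding by itself.

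The difference between NT-3 tube and lesion control for Psmb7 was not the same in the lesion and rostrally, by -0.25 ± 0.10 (limma interaction, adjusted p = 0.0388). This contrast was not fitted with the alternatives. Its lesion part ran from -0.17 to 0.08 over them, and Psmb7 was called in the lesion on none of the 6 days.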

How the results depend on the processing

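No dim filter, the eBayes trend with robust prior, the mean of all probe sets and the replicate block kept all 24 counts of called members within 1.5 times. Array weights gave 28 (rostral) and 26 (caudal) on days 60-90 against normal cord, 3, 8 and 13 rostrally for NT-3 tube against lesion control, NT-3 tube against tube alone and tube alone against lesion control, 4, 12 and 15 caudally for the same, 18 for NT-3 tube against lesion control in the lesion, and 3 for caudal against rostral. Matched days gave 0, 1 and 1 rostrally in that order of arms, and caudally 11 for NT-3 tube against tube alone and 4 for tube alone against lesion control. Taking the spread from the groups in the contrast gave 1 for NT-3 tube against tube alone and 0 for tube alone against lesion control in the lesion, and 0 for NT-3 tube against tube alone caudally. A second quantile normalization gave 4 (lesion) and 2 (caudal) for tube alone against lesion control. The causes were not tested.

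Leaving out single arrays moved counts within 0-2 (caudal NT-3 tube against lesion control), 0-14 (caudal NT-3 tube against tube alone), 4-15 (caudal tube alone against lesion control), 3-9 (lesion NT-3 tube against tube alone), 1-12 (lesion tube alone against lesion control), 1-2, 5-8 and 4-8 (rostral, in the order above) and 0-1 (caudal against rostral). Psmb8 minus Psmb5 stayed within 1.37-1.62, 1.58-1.77 and 1.54-1.75 rostrally, 2.22-2.41 and 2.33-2.52 in the lesion from day 10, and 1.56-1.81, 1.52-1.71 and 1.54-1.76 caudally. Psmb10 minus Psmb7 stayed within 0.43-0.74 and 0.32-0.63 rostrally from day 10, 1.15-1.46 and 0.87-1.18 in the lesion from day 10, and 0.44-0.74 and 0.47-0.78 caudally on days 1-3 and 10-30. Calls were lost in some of these fits, which leave fewer splits, and the part of that in the losses was not tested. Psmb10 minus Psmb7 rostrally on days 60-90 and caudally on days 1-3 had no call with all arrays (adjusted exact permutation p = 0.0612). Over matched days Psmb10 minus Psmb7 was 0.51 rostrally and 0.58 caudally on days 10-30, without a call.

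Signs turned with the mean of all probe sets for Psme4 (NT-3 tube against lesion control in the lesion 0.05, late against early -0.55), Psmb5 (lesion against rostral 0.00) and Psmb5 on day 10 in the lesion (NT-3 tube against normal cord 0.06). With array weights they turned rostrally for NT-3 tube against normal cord, Psmb7 on day 1 (-0.23) and Psmb5 on day 60 (-0.19), and against lesion control on day 10, Psmb9 (-0.39), Psmb10 (-0.29) and Psmb5 (-0.25). Same-numbered arrays of the same arm and day in other segments correlated at a median of 0.05 (138 pairs), against -0.02 for other numbers, so numbers were taken as names. With the replicate block 1 of 264 named changes lost its call, Psme2 in the lesion at 0.16. Matched days left no value in the lesion for day 3 and days 60-90 against normal cord, late against early, and NT-3 tube against tube alone. Arrays limit precision by their number.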

Other observations

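Lysosomal proteases serve the other main route of protein breakdown. Of 7 cathepsin genes, 7 rose in the lesion of lesion control on day 3, with a median of 1.64, and 6 on days 60-90, with a median of 1.26. Of all genes tested, 77.1% and 72.2% were called in these comparisons. Ctsk, a collagen-degrading cathepsin, rose by 4.41 ± 0.12 in the lesion on days 60-90, and Ctsh by 1.93 ± 0.06. Ctss, which trims the class II invariant chain in antigen-presenting cells, rose by 0.35 ± 0.10 on day 3 and was 0.06 ± 0.09 above normal cord on days 60-90 (limma, adjusted p = 0.538). Rostrally on days 60-90, 7 of 7 rose, with a median of 1.48, in a period in which none of the 13 constitutive core proteasome genes did. In that comparison 57.9% of all genes tested were called. Microglia and macrophage markers rose there in 7 of 7, with a median of 1.65, and their part was not tested.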
